A study of Mus musculus with 4 samples.

Results

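The genes described here make the enzymes and small proteins that remove peroxides and superoxide, keep glutathione and thioredoxin reduced, conjugate glutathione to other molecules and bind metals. The rule that chose them uses symbols and no measured value, though it was set with earlier results of these data known. It takes every gene whose name starts with Gpx, Gsta, Gstm, Gstp, Gstt, Gstk, Gsto, Mgst, Prdx, Sod, Txnrd or Glrx, together with Cat, Gsr, Gclc, Gclm, Gss, Txn1, Txn2, Nqo1, Srxn1, Mt1 and Mt2. The rule found 50 genes, read by 85 probe sets, among the 12393 genes that the array reads with a probe set of 1 symbol. For a gene with several probe sets the brightest on average stood for it, and 38 of the 50 were bright enough to be tested, among 6841 such genes in all.

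The study measured RNA of mouse gastrocnemius, a calf muscle rich in fast fibres, at 6 weeks of age on 4 arrays. The 2 genotypes compared had 2 arrays each, which the labels call biological replicates. MCK-PPARb mice overexpress PPARbeta, encoded by Ppard, from a transgene restricted to muscle and named for the muscle creatine kinase (MCK) promoter. The non-transgenic (NTG) mice were their wild-type littermates, and no other allele or treatment is named for either genotype. The labels do not say whether each array holds RNA of 1 mouse, so the p-values measure the spread between these arrays, part of which may be technical.

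Superoxide formed by mitochondria and oxidases is turned into hydrogen peroxide by superoxide dismutases. Catalase, the glutathione peroxidases and the peroxiredoxins then remove the peroxide, and the peroxidases of the last 2 families are kept reduced by glutathione and thioredoxin, which draw on NADPH through their reductases. PPARbeta is a nuclear receptor that binds DNA as a partner of RXR and is known in muscle for its control of fatty acid use.

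Ppard itself was read at 2169.3 and 2825.2 signal units on NTG arrays 1 and 2 and at 126048.6 and 98796.5 on MCK-PPARb arrays 1 and 2. Both transgenic arrays lay far above both controls. The difference, MCK-PPARb minus NTG on the log2 scale, was 5.49 ± 0.22 (SE, 2 arrays per group), or 45.1-fold, with a Benjamini-Hochberg adjusted p of 0.000187 in limma. The 4 arrays shared a trimmed mean of 1501 signal units, as arrays scaled to 1 target would. The median signal was between 431 and 513, and the 10 brightest probe sets held 4.2% of the signal on NTG array 1 against 2.36% to 2.78% on the others. Signals of probe sets are compared between arrays here, not between genes, since probes differ in brightness.

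None of the 38 tested antioxidant genes was called at an adjusted p under 0.05 in limma, where 0.731% of all tested genes were called. At an adjusted p under 0.1 there was 1, Cat, against 1.49% of all genes. At an unadjusted p under 0.05 there were 5 (13.2%, against 10.9% of all genes): Cat, Gpx3 and Gstk1 had the higher signal in MCK-PPARb muscle, where 5.31% of all genes passed in that direction, and Gstm2 and Gpx7 the lower, where 5.57% did. The pairs of arrays did not overlap for 14 members (36.8%, against 42.9% of all genes), 7 higher and 7 lower in MCK-PPARb muscle. These shares lie near the background of the whole array.

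As a group the members were balanced around 0, with 19 differences above it and 19 below. Their median difference was 0.024 and that of all tested genes was 0.011, and the median size regardless of sign was 0.24 in both. The middle range of the members, from the 25th to the 75th percentile, ran from -0.17 to 0.26, and that of all genes from -0.23 to 0.25. The precision was limited: the median 95% interval of a member reached 0.56 to either side, and for 13 of the 38 it took in a change of 1 log2 unit or more. Exact permutation of 2 arrays against 2 cannot give a two-sided p below 0.333, so single-gene tests rest on limma's pooling of the spread over genes. RNA of whole muscle also cannot tell apart fewer cells of a type and less RNA per cell.

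**Figure D1:**
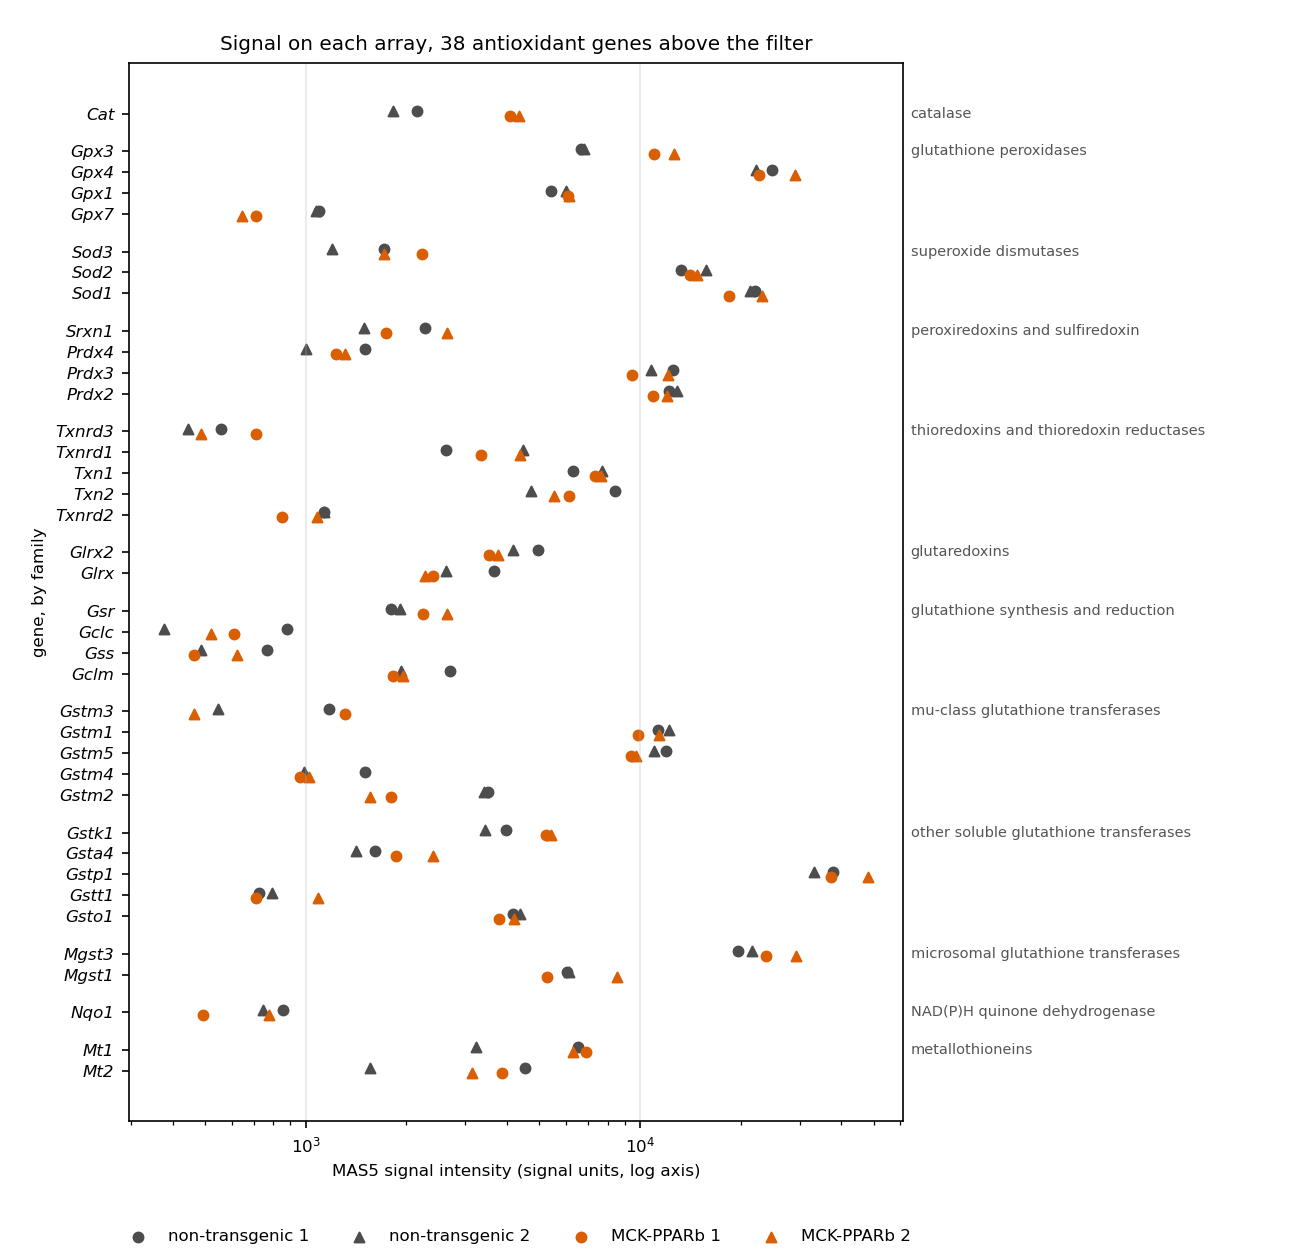
Signal of each of the 38 tested antioxidant genes (rows, by family) on the 4 arrays, on a log axis in MAS5 signal units; grey points are NTG arrays, orange points MCK-PPARb arrays, and circles and triangles are replicates 1 and 2. Orange lies clear of grey for Cat and Gpx3 to the right and for Gstm2 and Gpx7 to the left, while the points of most genes mix.

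Catalase, the peroxisomal enzyme that splits hydrogen peroxide into water and oxygen, had the smallest p of the members and stood 86th of the 6841 genes by p. Cat was read at 2154.5 and 1826.0 signal units on the NTG arrays and at 4072.1 and 4342.3 on the MCK-PPARb arrays. Both transgenic values were above both controls. The difference was 1.08 ± 0.21 on the log2 scale (95% interval 0.60 to 1.57), or 2.12-fold, with a limma adjusted p of 0.0939. A second probe set for Cat gave 1840.4 and 2465.6 against 3325.5 and 4443.6, a log2 difference of 0.85.

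The bases upstream of the Cat start are shown because catalase is a peroxisomal enzyme and PPARs take their name from peroxisome proliferation. All promoter sequences here are those of RefSeq, from GRCm38.p6, and run over the 250 bases before the start, in the direction of the gene. The Cat stretch lies at chr2:103485154-103485403 on the minus strand, and the capitals mark its 1 match to AGGTCA, the half-site bound by many nuclear receptors.

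Cat: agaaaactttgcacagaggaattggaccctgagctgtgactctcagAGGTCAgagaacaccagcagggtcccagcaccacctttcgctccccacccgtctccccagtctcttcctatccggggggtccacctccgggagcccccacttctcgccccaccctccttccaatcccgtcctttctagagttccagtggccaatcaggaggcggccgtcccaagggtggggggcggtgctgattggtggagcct

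The half-site was found on either strand in 10 of the 45 members with a promoter in the table (22.2%), against 18.1% of the 27025 genes in it. These counts were taken over windows that reach from 250 bases before to 50 after the start. Several promoters were listed for 10 of the members, while 1 stretch is printed per gene shown. Beside Cat, the half-site was found for Glrx2, Gpx2, Gpx4, Gss, Gstk1, Gstm1, Prdx3, Srxn1 and Txnrd2. An exact repeat of AGGTCA after 1 base, the model form of a PPAR element, was found in 0 of the 45 and in 0.0481% of all genes. With so rare a match, a count of 0 cannot tell whether members hold PPAR elements. Such matches describe letters only.

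The glutathione peroxidases, which reduce peroxides at the expense of glutathione, had members on both sides. Gpx3, the secreted form that circulates in plasma, was read at 6654.0 and 6791.5 signal units in NTG muscle and at 11021.9 and 12644.9 in MCK-PPARb muscle. The controls lay close together and both transgenic arrays were higher. The difference was 0.81 ± 0.18 (95% interval 0.39 to 1.24), or 1.76-fold, with a limma adjusted p of 0.134. Gpx7, a form of the endoplasmic reticulum, gave 1092.8 and 1072.3 in NTG muscle against 708.0 and 642.9. Here both transgenic arrays were the lower ones, with a difference of -0.68 ± 0.28 and a limma adjusted p of 0.448.

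Gpx4, which reduces lipid peroxides within membranes, showed how much the reading can depend on the probe set. Its brightest probe set gave 24743.8 and 22286.5 signal units against 22668.6 and 29028.9, overlapping groups with a difference of 0.13 ± 0.20. The other gave 16779.5 and 17242.7 against 25338.4 and 28783.1, with both transgenic arrays higher and a difference of 0.67 ± 0.18 (limma adjusted p 0.217). Gpx1, the main cytosolic form, gave 5429.8 and 6017.0 against 6098.3 and 6130.6, a difference of 0.097 whose sign turned to -0.0087 when the arrays were centred on their medians. Gpx2, Gpx5, Gpx6 and Gpx8 lay below the brightness filter.

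The Gpx3 promoter is shown beside that of Cat, since these were the members with the largest upward differences. It lies at chr11:54902604-54902853 on the plus strand and is in lower case throughout because none of the motifs searched was found in it.

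Gpx3: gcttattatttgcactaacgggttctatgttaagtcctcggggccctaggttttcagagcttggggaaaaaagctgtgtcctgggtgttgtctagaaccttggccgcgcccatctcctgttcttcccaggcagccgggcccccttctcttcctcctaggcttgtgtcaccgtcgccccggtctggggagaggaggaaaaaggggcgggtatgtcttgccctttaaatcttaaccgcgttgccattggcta

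Marker genes of fibres and other cells were read on the same arrays. None was called at an adjusted p under 0.05 in limma, where 0.731% of all tested genes were called. All 8 markers of slow fibres were above 0, with a median difference of 1.12. Of the 8, 6 had an unadjusted p under 0.05 in limma, where 5.31% of all genes passed in that direction. The summed signal of the 8 was 80850 and 122700 units in NTG muscle and 172200 and 200500 in MCK-PPARb muscle. Of 5 adipocyte markers on the array, Lep and Cidec were below the filter, Adipoq was at 1.03, Retn at 1.02 and Fabp4 at -0.23. The summed signal of all 5, tested or not, was 9561 and 14300 against 12480 and 12390. The 3 tested Schwann cell markers had a median of 0.67, with Mbp at 0.96, Pmp22 at 0.67 and Sox10 at 0.29. Mag, which lay below the filter, went the other way, with 463.4 and 459.7 units in NTG muscle against 446.7 and 397.7. The summed signals of all 4 were 18100 and 19990 against 30230 and 34140, mostly from Mbp and Pmp22. The part of these cells and fibres in the Cat and Gpx3 values was not tested.

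The 10 fast fibre markers, which define this muscle, were all detected with a median of -0.33 and summed signals of 2354000, 1242000, 1468000 and 1279000 on NTG arrays 1 and 2 and MCK-PPARb arrays 1 and 2. None of the 10 passed an unadjusted p of 0.05. The medians were 0.034 for 9 macrophage markers, -0.087 for 6 endothelial markers and -0.15 for 6 fibroblast markers, and the single red cell marker above the filter, Alas2, was at 0.17.

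The superoxide dismutases turn superoxide into hydrogen peroxide, and none of the 3 passed an unadjusted p of 0.05 in limma. Sod1, the cytosolic copper and zinc enzyme, gave 22126.7 and 21336.0 signal units against 18513.0 and 23186.3. The transgenic pair straddled the controls, and the difference was -0.069 ± 0.19, while a dimmer probe set was at 0.19. Sod2, the mitochondrial manganese enzyme, gave 13245.2 and 15774.0 against 14127.4 and 14788.0 by its brightest probe set, so that the transgenic values fell inside the controls and the 95% interval ran from -0.43 to 0.43. That difference was 0.048 with quantile normalization and -0.11 with median centring. Dimmer Sod2 probe sets were at -0.14 ± 0.18 and -0.56 ± 0.39, each lower on both transgenic arrays than on either control. Such a separation was seen for 42.9% of all genes in either direction. Sod3, the extracellular form, was at 0.44 ± 0.28 with a limma adjusted p of 0.642 and overlapping groups.

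The peroxiredoxins, thiol peroxidases that are recharged by thioredoxin, lay close to 0. Prdx2, abundant in the cytosol, was read at 12194.3 and 12926.3 signal units in NTG muscle and at 10906.6 and 12024.5 in MCK-PPARb muscle. Both transgenic values were below the controls by a small margin, with a difference of -0.13 ± 0.18. Prdx3, the mitochondrial form, gave 12527.6 and 10753.4 against 9486.2 and 12105.3, overlapping groups at -0.12 ± 0.20. Prdx4, of the secretory pathway, was at 0.049, which turned to -0.057 under median centring. Srxn1, the sulfiredoxin that restores overoxidised peroxiredoxins, was at 0.21 ± 0.31.

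Among the thioredoxins, Txn1, the cytosolic protein, was read at 6303.8 and 7696.8 signal units in NTG muscle and at 7313.2 and 7633.7 in MCK-PPARb muscle. The transgenic values lay within the range of the controls, at 0.10 ± 0.19 and at -0.0047 under median centring. The mitochondrial Txn2 was read by 3 probe sets with differences of -0.12, -0.46 and -0.16. The second of these gave 7691.9 and 6527.7 against 5153.1 and 5171.3 (limma adjusted p 0.454), whereas the first, brightest one had its controls apart at 8434.7 and 4728.2 and the transgenic arrays between them.

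The reductases that recharge thioredoxin are selenoproteins. Txnrd1, the cytosolic one, gave 2623.5 and 4465.6 signal units against 3335.4 and 4390.0, with the transgenic pair inside the controls and a difference of 0.16 ± 0.29. Txnrd2, the mitochondrial one, gave 1131.8 and 1133.4 against 848.3 and 1077.5, both transgenic arrays lower at -0.24 ± 0.27, but its dimmer probe set was at 0.13. Txnrd3, a form that also carries a glutaredoxin domain, gave 558.5 and 444.4 against 710.7 and 487.0, and its probe sets differed in sign at 0.24 and -0.47. No reductase probe set passed an unadjusted p of 0.05.

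Both glutaredoxins, which use glutathione to free protein thiols, were lower on both transgenic arrays than on either control by their brightest probe set, a separation seen for 42.9% of all genes in either direction. Glrx2, which has a mitochondrial form, gave 4954.8 and 4155.3 signal units against 3537.9 and 3760.3, a difference of -0.32 ± 0.20 with a limma adjusted p of 0.643. Its other probe sets gave -0.41 and, with overlapping groups, 0.036. Glrx, the cytosolic protein, was at -0.41 ± 0.24 with a limma adjusted p of 0.607, and its other probe set at -0.15 ± 0.22 with overlapping groups. Neither passed the test, and both stayed below 0 with quantile normalization. Median centring lowered every difference by the same amount, so it could not have turned them.

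The enzymes that make and reduce glutathione lay on both sides of 0. Gsr, glutathione reductase, gave 1799.6 and 1911.7 signal units in NTG muscle and 2243.9 and 2638.0 in MCK-PPARb muscle. Both transgenic values were higher, with a difference of 0.39 ± 0.22 and a limma adjusted p of 0.592. Gclc and Gclm, the catalytic and modifier subunits of the rate-limiting ligase of glutathione synthesis, were at -0.031 ± 0.46 and -0.28 ± 0.25. Gss, which completes the tripeptide, was at -0.18 ± 0.38. The groups overlapped for these 3 genes.

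**Figure D2:**
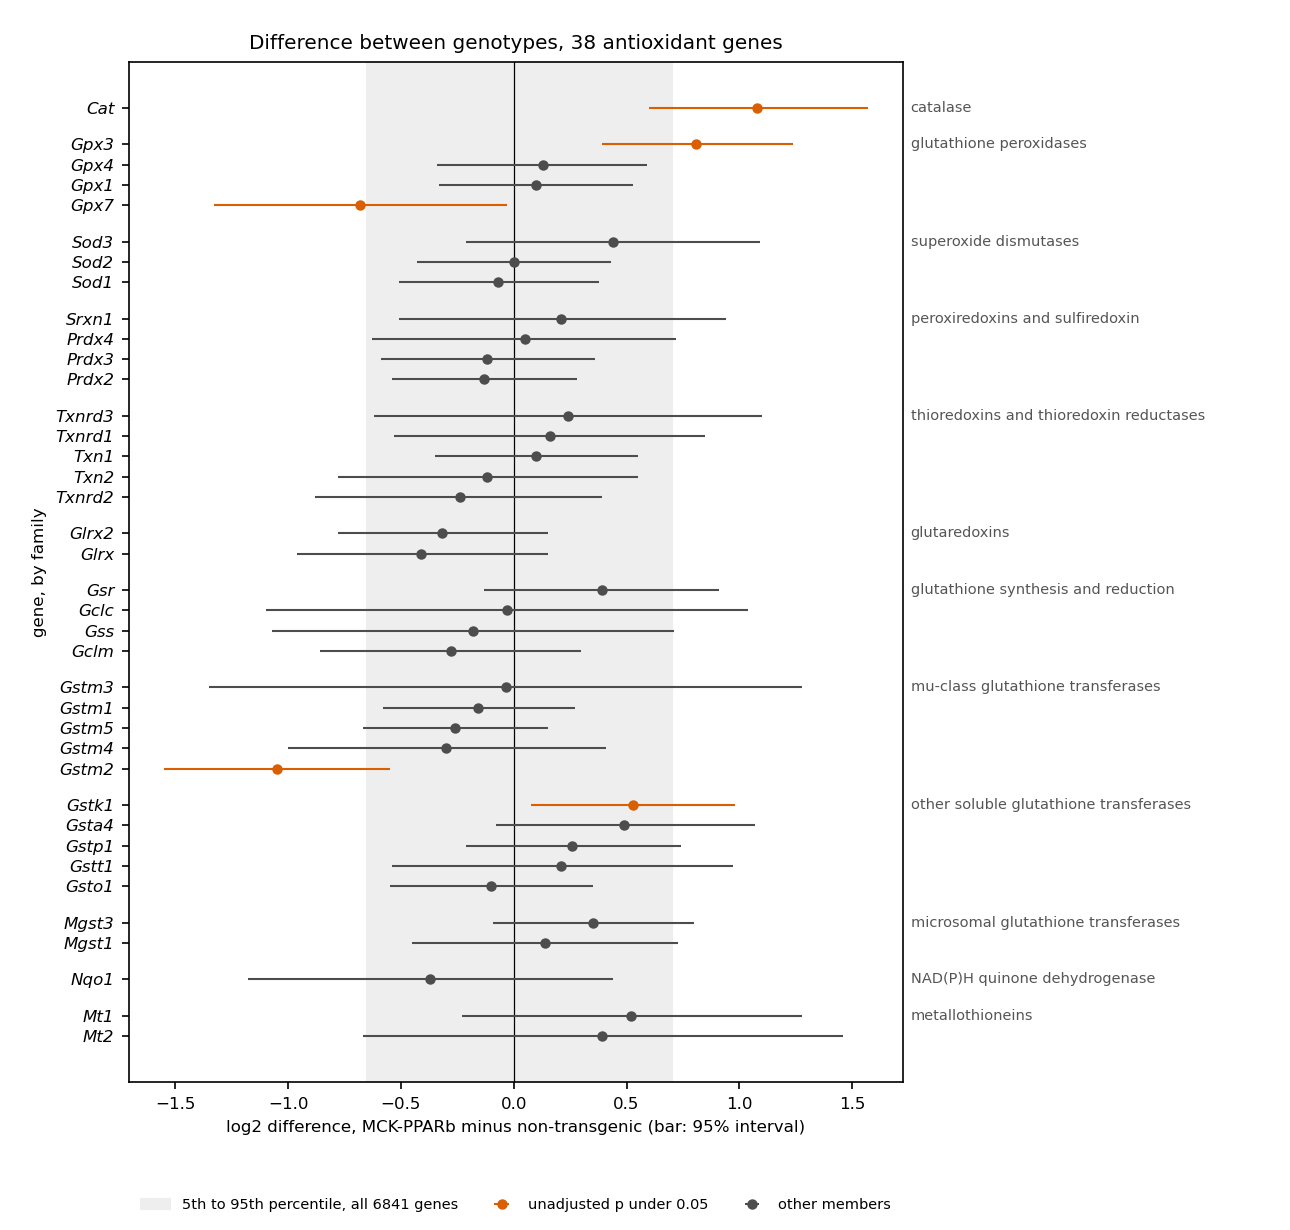
Log2 difference, MCK-PPARb minus NTG, of the 38 tested antioxidant genes by family, with the 95% interval of the limma fit; orange marks an unadjusted p under 0.05, and the grey band spans the 5th to 95th percentile of all 6841 tested genes, -0.65 to 0.70. Cat, Gpx3, Gpx7 and Gstm2 have their points outside the band, and none of the 38 reached an adjusted p under 0.05.

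The glutathione transferases join glutathione to lipid peroxidation products and foreign compounds. All 5 tested members of the mu class had negative differences, also with quantile normalization. Median centring, which lowered every difference alike, could not have turned these. Gstm2 was read at 3519.0 and 3414.3 signal units in NTG muscle and at 1796.2 and 1556.2 in MCK-PPARb muscle. The controls were nearly equal and both transgenic arrays were below them. The difference was -1.05 ± 0.21 (95% interval -1.55 to -0.55), 2.07-fold lower, with a limma adjusted p of 0.105.

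Its neighbours in the class were nearer to 0. Gstm5 gave 11924.2 and 11001.5 signal units against 9392.1 and 9733.2, without overlap, at -0.26 ± 0.17. Gstm1 gave 11341.5 and 12226.3 against 9833.8 and 11359.5, overlapping at -0.16 ± 0.18, and its other probe sets gave -0.014, -0.38 and 0.22. Gstm4 was at -0.30 ± 0.30 and Gstm3 at -0.035 ± 0.56, both with overlapping groups. Genes of this class are close in sequence, and how far their probes read each other's transcripts was not tested.

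The promoter of Gstm2 is shown as that of the member with the largest downward difference. It lies at chr3:107986421-107986670 on the minus strand and held none of the motifs searched.

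Gstm2: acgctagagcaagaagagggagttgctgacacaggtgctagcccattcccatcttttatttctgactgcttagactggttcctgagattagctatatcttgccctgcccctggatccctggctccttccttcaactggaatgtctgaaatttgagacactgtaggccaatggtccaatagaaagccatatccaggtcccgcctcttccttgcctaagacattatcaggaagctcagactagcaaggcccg

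Most of the other transferases had positive differences. Gstk1, the kappa form of mitochondria and peroxisomes, gave 3960.3 and 3438.6 signal units in NTG muscle and 5225.1 and 5405.0 in MCK-PPARb muscle. Both transgenic arrays were higher, with a difference of 0.53 ± 0.19 (95% interval 0.075 to 0.98), or 1.44-fold, and a limma adjusted p of 0.381. Gsta4, the form that handles the lipid aldehyde hydroxynonenal, was at 0.49 ± 0.24 with a limma adjusted p of 0.551 and no overlap. Gstp1 gave 37656.0 and 33158.6 against 37343.3 and 48023.5, overlapping at 0.26 ± 0.20. Gstt1 was at 0.21 ± 0.32. Gsto1 gave 4171.8 and 4388.5 against 3787.2 and 4196.2, overlapping at -0.10 ± 0.19, with its other probe set at 0.20. Of these 5 genes, 4 had positive differences, under quantile normalization and median centring too.

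The microsomal transferases sit in membranes. Mgst3 gave 19687.4 and 21683.0 signal units in NTG muscle and 23802.1 and 29272.7 in MCK-PPARb muscle. Both transgenic values were higher, at 0.35 ± 0.19 with a limma adjusted p of 0.574, but at 0.20 without MCK-PPARb replicate 2 and at 0.57 when its probe sets were averaged. A dimmer Mgst3 probe set gave 479.8 and 493.0 against 835.3 and 845.4, a difference of 0.79 ± 0.31 with a limma adjusted p of 0.418. Mgst1 was at 0.14 ± 0.25, with the transgenic pair on either side of the controls. Nqo1, the quinone reductase widely used as a readout of the transcription factor Nrf2, was at -0.37 ± 0.35 with overlapping groups and a limma adjusted p of 0.778.

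**Figure D3:**
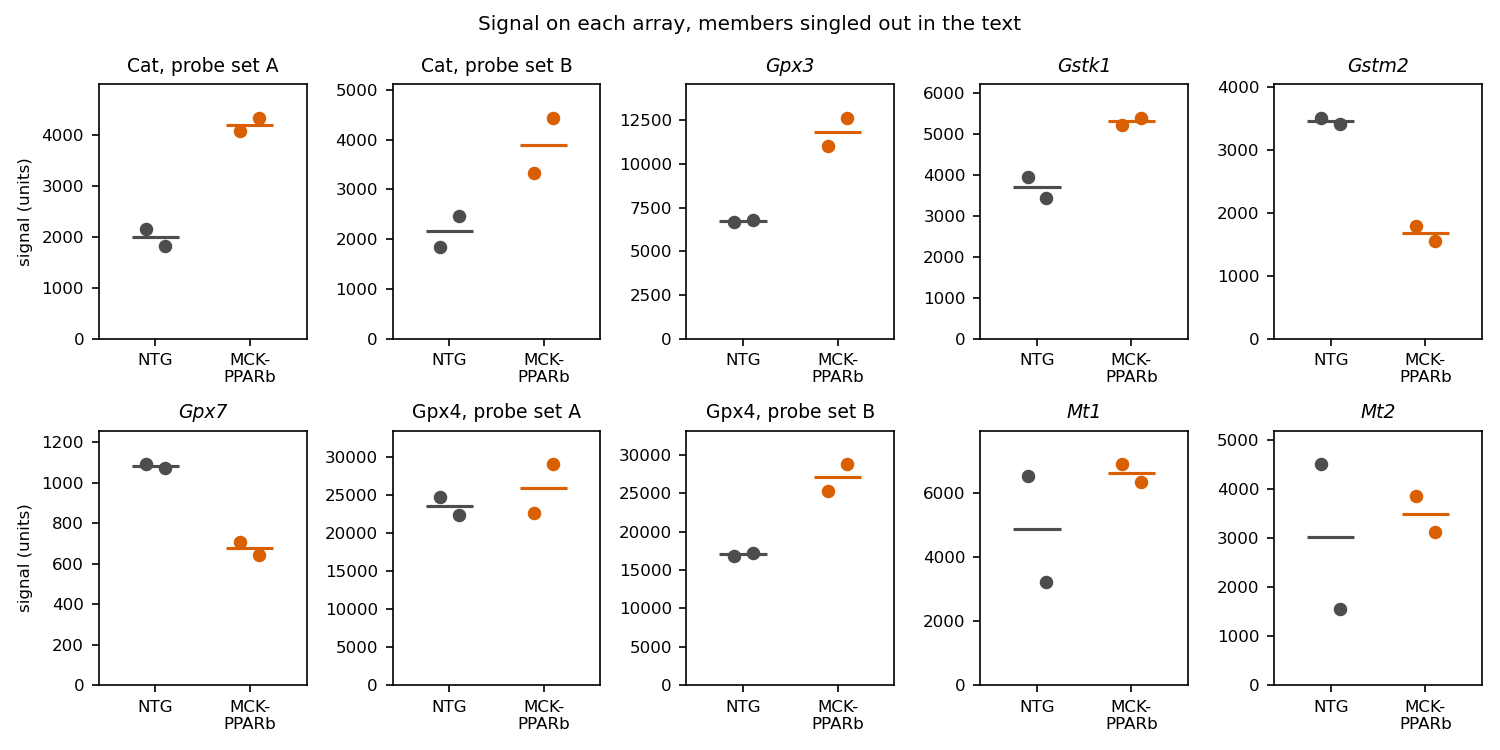
Signal on each array (points) and mean of the 2 arrays (lines) for 8 genes, each on its own linear axis from 0, in MAS5 signal units; A and B are the brighter and dimmer probe sets of Cat and Gpx4. Cat, Gpx3, Gstk1, Gstm2, Gpx7 and Gpx4 probe set B separate the genotypes, while the NTG arrays stand apart from each other for Mt1 and Mt2.

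The metallothioneins, small cysteine-rich proteins that bind zinc and copper, varied widely between the controls. Mt1 was read at 6526.8 and 3227.4 signal units on NTG arrays 1 and 2 and at 6889.0 and 6324.1 on MCK-PPARb arrays 1 and 2. NTG array 2 was the low one and the other 3 lay together. Mt2 repeated this order, with 4515.6 and 1552.5 against 3865.4 and 3135.2. The differences were 0.52 ± 0.32 for Mt1 (limma adjusted p 0.623) and 0.39 ± 0.45 for Mt2 (limma adjusted p 0.820). Without NTG replicate 2 they were 0.016 and -0.38, and without NTG replicate 1 they were 1.03 and 1.16, so that 1 control array set their size and, for Mt2, the sign.

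The promoters of this neighbouring pair are shown because metal response elements are their known control sites. The capitals mark matches on either strand to the metal response element core, searched as TGCGCNC and TGCACNC. Mt1 lies at chr8:94178839-94179088 and Mt2 at chr8:94172368-94172617, both on the plus strand.

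Mt1: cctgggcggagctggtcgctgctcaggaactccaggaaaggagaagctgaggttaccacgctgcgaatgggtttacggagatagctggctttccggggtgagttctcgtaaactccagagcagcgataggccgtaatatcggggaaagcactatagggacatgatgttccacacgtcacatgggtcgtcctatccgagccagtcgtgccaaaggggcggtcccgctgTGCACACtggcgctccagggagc

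Mt2: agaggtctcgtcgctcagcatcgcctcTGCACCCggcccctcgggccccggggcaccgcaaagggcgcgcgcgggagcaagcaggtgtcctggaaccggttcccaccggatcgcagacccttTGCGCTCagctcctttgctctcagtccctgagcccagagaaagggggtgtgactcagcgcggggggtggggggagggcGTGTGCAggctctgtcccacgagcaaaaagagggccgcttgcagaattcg

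There was 1 such match in the Mt1 stretch and 3 in that of Mt2. In the searched windows, which reach 50 bases past the start, TGCGCNC was found for Mt1 too, outside the printed stretch. Over all members the metal response element was found for 15 of 45 genes (33.3%, against 28.2% of all genes), TGCGCNC in 26.7% against 17% and TGCACNC in 13.3% against 14.2%. The antioxidant response element core, TGACNNNGC, through which Nrf2 acts, was found for 9 of 45 (20%, against 14% of all genes): Gclm, Gsta3, Gstm5, Gstm7, Mgst1, Mt2, Sod1, Srxn1 and Txnrd1. The cAMP response element TGACGTCA was found for 0 of 45 and for 2.03% of all genes.

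The 12 members below the brightness filter of 444 signal units were Gpx2, Gpx5, Gpx6, Gpx8, Gsta2, Gsta3, Gstm6, Gstm7, Gstp3, Gstt2, Gstt3 and Mgst2. Their signals ran from 12.2 to 654.3 over the arrays and they were not tested. Of the 38 tested members, 16 had more than 1 probe set above the filter. Among these, 10 agreed in sign over all their probe sets, and Glrx2, Gstm1, Gsto1, Sod1, Txnrd2 and Txnrd3 did not. Prdx1, Glrx3 and Gsta1 were read only by probe sets shared with other genes and have no value here.

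Genes that supply or use the same pathways were set beside the members in 7 lists holding 116 genes, of which 77 were tested. Of these, 1 was called in limma, and 16 (20.8%) had an unadjusted p under 0.05, 9 higher and 7 lower, with a median difference of -0.024. Over all tested genes the shares were 0.731% called and 10.9% at an unadjusted p under 0.05, 5.31% higher and 5.57% lower, against which the counts of each list below are to be read, though the lists were chosen with earlier results known. The called gene was Aox1, aldehyde oxidase, a molybdenum enzyme that oxidises aldehydes and yields reactive oxygen. It was read at 706.0 and 726.5 signal units in NTG muscle and rose to 2414.9 and 2551.6 in MCK-PPARb muscle. Its difference was 1.79 ± 0.24, or 3.47-fold, with a limma adjusted p of 0.0299. The call was lost without the intensity trend (limma adjusted p 0.076) and without either MCK-PPARb array (limma adjusted p 0.1 and 0.135), and the gene lay below a filter at the 75th percentile. Over the alternatives that tested it the limma adjusted p ran from 0.000834 to 0.135.

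NADPH is the source of reducing power for both reductases, and its list had differences on both sides, with a median of -0.036 over 12 genes. Me1, cytosolic malic enzyme, was read at 19328.2 and 19030.8 signal units in NTG muscle and at 11242.1 and 8804.1 in MCK-PPARb muscle, both transgenic values lower, at -0.95 ± 0.19 (limma adjusted p 0.107). Idh2, the mitochondrial NADP-dependent isocitrate dehydrogenase, was at 11291.4 and 13172.7 against 19914.6 and 25078.2, both higher, at 0.87 ± 0.20 (limma adjusted p 0.144). At an unadjusted p under 0.05 there were 3 higher and 2 lower, and none was called.

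Of 16 tested thioredoxin partners and thiol repair genes, with a median of 0.11, none was called and 3 were higher and 1 lower at an unadjusted p under 0.05. Txnip, the protein that binds and inhibits thioredoxin, was read at 17281.2 and 15290.1 signal units against 24047.3 and 30255.5. Both transgenic arrays were higher, at 0.73 ± 0.20 (limma adjusted p 0.220). Msrb1, a selenoprotein that reduces oxidised methionine, was at 16907.2 and 14027.9 against 8696.5 and 10453.5, both lower, at -0.69 ± 0.20 (limma adjusted p 0.248).

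The selenoprotein list, 12 genes of synthesis factors and other selenoproteins, had the lowest median of the 7 lists, -0.27, with 0 called in limma and 2 lower at an unadjusted p under 0.05. These were Selenot at -0.99 ± 0.26 (limma adjusted p 0.211) and Selenof at -0.69 ± 0.20 (limma adjusted p 0.255), both proteins of the endoplasmic reticulum. In the list of glutathione handling and detoxification (12 genes, median 0.092) none was called, with 2 higher and 1 lower at an unadjusted p under 0.05. Ephx1, microsomal epoxide hydrolase, was at 0.73 ± 0.23 (limma adjusted p 0.297). Chac1, which degrades glutathione, was at -1.44 ± 0.50 (limma adjusted p 0.348), with NTG array 1 at 6704.5 signal units and the other 3 arrays between 1186.5 and 2057.6.

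The 17 tested Nrf2 regulators and other targets, the list that holds Aox1 and also Me1, had a median of -0.012, with 4 higher and 1 lower at an unadjusted p under 0.05, where 10.9% of all genes passed in either direction. Of these, only Aox1 was particular to this list. Pgd, Tkt and the lower Me1 are also counted in the NADPH list, and Ephx1 in that of glutathione handling. The 10 metal handling genes had a median of -0.12 with 0 called in limma, and 1 was lower at an unadjusted p under 0.05, the zinc exporter gene Slc30a4 at -0.82 ± 0.28 (limma adjusted p 0.342). The next, the zinc importer gene Slc39a14, was at -0.74 ± 0.31 (limma adjusted p 0.470). Of 12 genes for sources of reactive oxygen on the array, 8 lay below the filter, and the 4 tested ran from -0.068 for Rac1 to -0.015, with Cyba at -0.038 and a median of -0.039. None of these 4 passed an unadjusted p of 0.05 in limma.

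**Figure D4:**
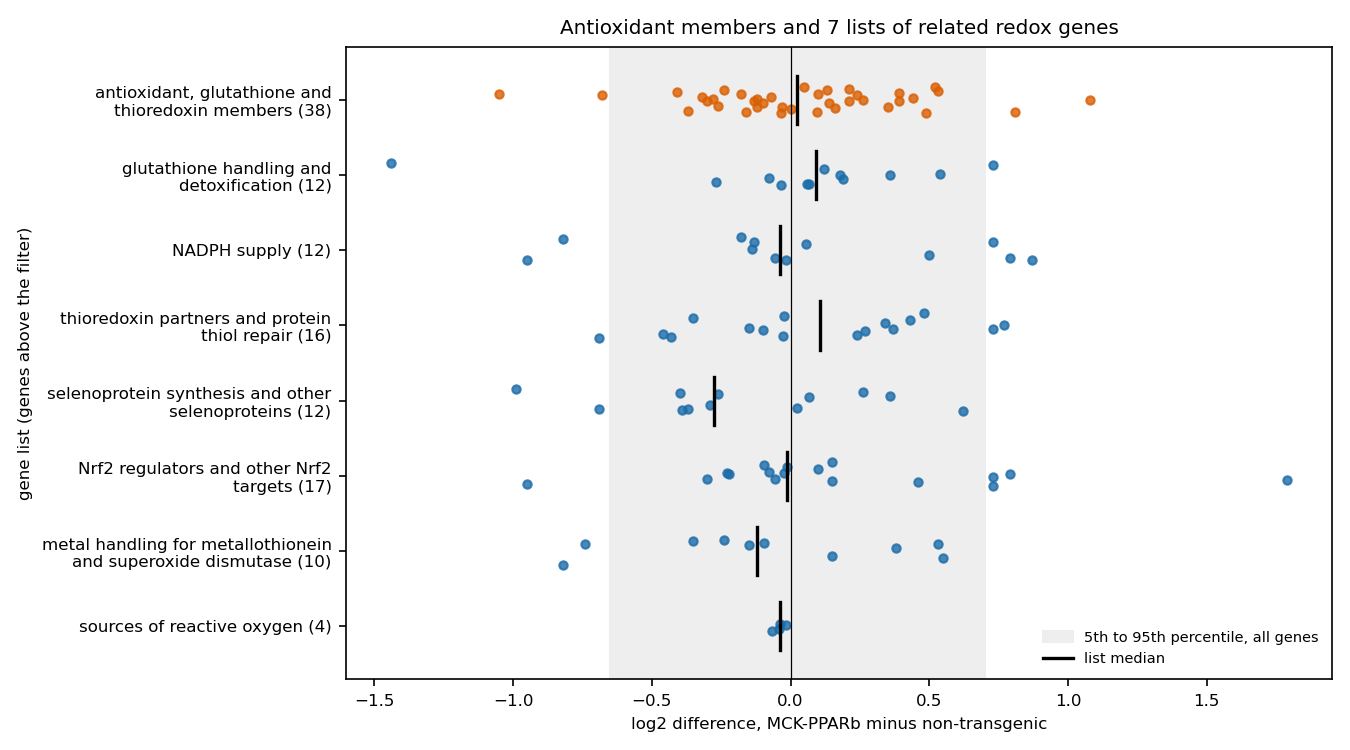
Log2 difference, MCK-PPARb minus NTG, of each tested gene (points, shifted vertically at random for legibility) among the 38 antioxidant members (orange) and in 7 lists of related genes (blue); black bars are list medians and the grey band is the 5th to 95th percentile of all tested genes. The medians run from -0.27 for selenoproteins to 0.11 for thioredoxin partners, and the point at 1.79 is Aox1.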

How the data were processed

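Total RNA of gastrocnemius (RNAzol B) was labelled as biotinylated cRNA and hybridised to Affymetrix arrays, 2 per genotype. The deposited values are MAS5 signal intensity on a linear scale, made with GCOS and MAS5 per the submitters' processing notes. Their versions and the scaling target are not stated in these sources. Of 22690 deposited probe sets, 64 controls were left out. Log2 signals above the median of the remaining 22626 (444 signal units) in their mean over the arrays left 11313, fitted with limma 3.58.1 (trended eBayes) in R 4.3.3 and adjusted by Benjamini-Hochberg over all 11313; adjusted p under 0.05 was called. The number of arrays limits the precision. Symbols came from the platform annotation: 20380 probe sets had 1 symbol, 691 several and 1555 none, and 20351 of the 20380 matched the GRCm38.p6 RefSeq gene table by gene number. A gene was represented by its brightest probe set of 1 symbol.

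Members and lists were chosen with earlier results of these data known. Named with array values were Ppard, members called or with an unadjusted p under 0.05, the 10 brightest members, the brightest of each family and those whose probe sets differed in sign; from each list, the called genes and up to 2 of smallest p. Other values, the second probe sets of Cat, Gpx4, Mgst3 and Txn2, the dimmer ones of Sod2 and the half-site search were added after values were seen. RefSeq promoters were searched on both strands; they were listed for 45 of the 50 members, without Gsta4, Gclc, Gsr, Sod3 and Gstt2. The procedure was tested on 20 simulations of 11313 probe sets with 200 changed. Changes of 1 log2 unit were called in 8.06% of cases, those of 2 in 70.1% and those of 4 in 98.7%. Of the calls, 4.55% were false. The alternatives changed scaling, pseudocount, filter, variance model, probe sets, threshold, block and arrays used.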

Additional observations from a re-analysis of the deposited data

How the results depend on the processing

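No antioxidant gene was called under any alternative except 2: with the replicate number as a block (3 called: Cat, Gpx3 and Gstm2) and at an adjusted p under 0.1 (1, Cat). With the block, 3.33% of all tested probe sets were called, against 0.601% as reported. Probe sets called, 68 as reported, were 116 with median centring, 21 without the intensity trend, 377 with the replicate block, 150 at an adjusted p under 0.1 and 36 to 159 when each array was left out in turn (36 without MCK-PPARb replicate 1, 159 without NTG replicate 2). Related redox genes called, 1 as reported, were 0 with the filter at the 75th percentile and without the intensity trend, 5 with the replicate block (Aox1, Chac1, Idh2, Me1 and Selenot) and 0 to 2 with an array left out (0 without either MCK-PPARb array). The block leaves 1 residual degree of freedom, and same-numbered arrays share only a number (correlation of deviations 0.276, 2 pairs). Median centring moved all differences by -0.11 in the median and left 16 members above 0 and 22 below. The median member difference, 0.024 as reported, ran from -0.091 to 0.14, moving each time by less than the spread between replicates of 0.12. Of 148 values of 10 named members, 142 kept direction and call, 3 were newly called with the block and 3 changed sign when 1 array was left out: leaving out arrays gave -0.53 to 0.30 for Txn2 (0.30 without NTG replicate 1), -0.38 to 1.16 for Mt2 (-0.38 without NTG replicate 2) and -0.051 to 0.31 for Gpx4 (-0.051 without MCK-PPARb replicate 2). The cause was not tested. Averaging the probe sets of a gene gives no count of probe sets. With an array left out, the lone array is assumed to vary like the other group.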
